A study of Homo sapiens with 2 samples.

Results

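DNA methylation places a methyl group on the cytosine of CpG dinucleotides. In mammalian cells most CpGs away from promoters are methylated, whereas CpG-rich promoters and active enhancers are often unmethylated. Leukemias with the RUNX1-RUNX1T1 fusion, made by the translocation t(8;21), carry changed methylation both at promoters and far from them. The regions described here were 405 tiles of 500 bp outside protein-coding promoters that were methylated in SKNO-1 and low or unmethylated in SKNO-siAE. SKNO-1 is a human acute myeloid leukemia (AML) cell line that carries the fusion. SKNO-siAE (labelled SKNO1-siAE) is the same line infected with the lentiviral vector pRRLcPPT.hPGK, which encodes oligonucleotides against the fusion mRNA, so that both lines share the SKNO-1 background and grew in the same serum-supplemented medium. Each line was measured once, by MCC-Seq, in which bisulfite converts unmethylated cytosine and probes capture the converted DNA of selected regions. With 1 library per cell line, the silencing, the vector itself, separate culture of the lines and library preparation cannot be told apart, and whether SKNO-siAE is a clone or a pool is not given in the sources used here.

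The level of a cytosine was its methylated reads divided by all its reads, from 0 to 1, and the level of a tile was the mean over its CpG cytosines. A read that covers several CpGs is counted at each of them, so sums over a tile or region are given as calls, which are not separate reads. The tiles were chosen by a difference in this same contrast: an autosomal tile was a member where at least 10 CpG cytosines had at least 5 reads in both libraries, SKNO-1 exceeded SKNO-siAE by at least 0.6, and no base lay between 1500 bp upstream and 500 bp downstream of a protein-coding transcript start. Of 99847 measured tiles, 797 (0.798%) met the difference. Outside promoters these were the 405 members among 61401 tiles (0.66%), and at promoters 392 of 38446 tiles (1.02%). In the opposite direction, 1709 non-promoter tiles (2.78%) were lower in SKNO-1 by at least 0.6. The levels of the members are therefore a description, and no test was made between the 2 libraries.

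Member tiles that adjoined or lay 1 tile apart were joined, which gave 346 regions. A total of 297 regions held 1 tile, 41 held 2, 6 held 3 and 2 held 4, and the longest spanned 2500 bp. The sequences of 8 of them show DNA that was methylated in 1 line and not in the other, but not a typical member. They were taken from among the regions with the most joined members, the tiles with the largest differences and, for TP73, the gene lists described below. They are not the top of either ranking, since ARMH1, MIB2 and SEMA6B, also described below, are not shown. Each line gives the 200 bp with the most measured cytosines in hg19 (GRCh37). Capitals mark the CpGs with at least 5 reads in both libraries.
LINC02952 (chr11:69259767-69259966, + strand): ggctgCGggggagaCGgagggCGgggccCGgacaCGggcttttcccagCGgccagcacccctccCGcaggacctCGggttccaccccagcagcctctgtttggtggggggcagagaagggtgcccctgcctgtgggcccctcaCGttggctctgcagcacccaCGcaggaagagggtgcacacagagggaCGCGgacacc
MAD1L1 (chr7:2116586-2116785, + strand): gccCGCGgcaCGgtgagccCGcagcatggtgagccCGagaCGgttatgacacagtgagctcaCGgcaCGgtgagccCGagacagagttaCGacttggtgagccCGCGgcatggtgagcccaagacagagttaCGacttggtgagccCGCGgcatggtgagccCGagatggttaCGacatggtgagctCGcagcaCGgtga
CRYBG1 (chr6:106960004-106960203, + strand): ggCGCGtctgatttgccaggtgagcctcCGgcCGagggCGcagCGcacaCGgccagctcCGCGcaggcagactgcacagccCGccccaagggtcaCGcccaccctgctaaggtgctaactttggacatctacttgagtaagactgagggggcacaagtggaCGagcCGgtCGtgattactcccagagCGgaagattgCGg
LINC00886 (chr3:156534784-156534983, + strand): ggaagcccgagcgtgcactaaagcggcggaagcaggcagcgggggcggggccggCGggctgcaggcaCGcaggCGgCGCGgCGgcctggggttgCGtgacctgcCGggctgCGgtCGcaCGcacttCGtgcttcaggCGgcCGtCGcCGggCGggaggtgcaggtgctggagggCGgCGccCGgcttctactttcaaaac
ESRRB (chr14:76843557-76843756, + strand): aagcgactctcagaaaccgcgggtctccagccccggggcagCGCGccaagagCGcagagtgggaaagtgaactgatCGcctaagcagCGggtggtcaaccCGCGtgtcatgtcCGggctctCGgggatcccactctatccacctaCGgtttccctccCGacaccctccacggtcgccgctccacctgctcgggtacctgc
DNMT3A (chr2:25563298-25563497, + strand): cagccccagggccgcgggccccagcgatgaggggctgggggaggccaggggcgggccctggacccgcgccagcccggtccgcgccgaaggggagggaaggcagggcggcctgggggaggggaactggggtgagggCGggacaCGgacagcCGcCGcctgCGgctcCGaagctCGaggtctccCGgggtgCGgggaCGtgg
ADAMTS17 (chr15:100672198-100672397, + strand): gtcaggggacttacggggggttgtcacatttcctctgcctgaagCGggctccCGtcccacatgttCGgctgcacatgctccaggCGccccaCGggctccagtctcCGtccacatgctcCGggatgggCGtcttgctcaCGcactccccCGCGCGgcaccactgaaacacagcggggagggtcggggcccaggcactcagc
TP73 (chr1:3634753-3634952, + strand): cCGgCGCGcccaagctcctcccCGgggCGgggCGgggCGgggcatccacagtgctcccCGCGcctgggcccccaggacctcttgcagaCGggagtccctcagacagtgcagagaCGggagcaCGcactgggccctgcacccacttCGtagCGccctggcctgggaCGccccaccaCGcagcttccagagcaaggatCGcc
In the 200 bp of LINC00886, a long non-coding RNA gene, all 153 calls at 20 cytosines were methylated in SKNO-1 against 0 of 177 in SKNO-siAE, with 6 to 9 reads at each cytosine in both lines. In the LINC02952 window 200 of 209 calls were methylated in SKNO-1 against 0 of 203 in SKNO-siAE. In the TP73 window, in an intron, 377 of 385 calls were methylated against 0 of 439. The MAD1L1 window held 38 cytosines, at which 1036 of 1050 calls were methylated in SKNO-1 against 2 of 1255 in SKNO-siAE. This window was made of near-repeats, and the letters GGTGAGCC (either strand) occurred 7 times in it, whereas 0.0212% of all non-promoter tiles held them at least 3 times. The letters were chosen after the sequence was seen, and whether reads from other copies were placed there was not tested. The windows ran from 63.5% GC at MAD1L1 to 79.5% GC at DNMT3A, all above the 55.8% of the median member tile.

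The members took values near both ends of the scale (plot of tile levels in both lines). In SKNO-1 the lowest member was at 0.602, the median at 0.8996 and the highest at 1. In SKNO-siAE the lowest was at 0, the median at 0.0325 and the highest at 0.377. A level of at least 0.9 was found in 202 members in SKNO-1, and a level under 0.05 in 237 members in SKNO-siAE. In SKNO-siAE, 120 members had no methylated read, and 6 tiles were at exactly 1 in SKNO-1 against 0 in SKNO-siAE. A smaller set of 56 members kept a level of at least 0.2 in SKNO-siAE. For comparison, the median non-promoter tile was at 0.865 in SKNO-1 against 0.914 in SKNO-siAE. A difference of at least 0.6 holds a member at 0.6 or above in SKNO-1 and at 0.4 or below in SKNO-siAE, so where the members lie beside these medians was set by their choice.

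The difference threshold cut through a continuous range. Just inside it were tiles in RNF130 (0.766 and 0.166 in SKNO-1 and SKNO-siAE), BAHCC1 (0.631 and 0.0296) and AGAP1 (0.894 and 0.293). Just outside were a tile in CHSY1 (0.801 and 0.203) and intergenic tiles whose nearest coding starts were those of CDX2 (0.598 and 0) and GMPR (0.974 and 0.375). The members were spread over the whole range of differences, with 106 from 0.6 to under 0.7, 91 to under 0.8, 102 to under 0.9 and 106 at 0.9 or above.

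The members held 7904 measured cytosines, with 172715 calls in SKNO-1, of which 151249 were methylated, and 138912 calls in SKNO-siAE, of which 10732 were methylated. The median cytosine had 17 reads in SKNO-1 against 13.5 reads in SKNO-siAE, so that the level of a single cytosine is coarse. Of these cytosines 58.9% were fully methylated in SKNO-1, and 79.8% had no methylated read in SKNO-siAE. SKNO-1 was higher at 95.9% of them and lower at 67. In 178 of the 405 members (43.95%) every cytosine in SKNO-1 was above every cytosine in SKNO-siAE. Intermediate levels, over 0.3 to 0.7, were found at 11.8% of the cytosines in SKNO-1 and 6.98% in SKNO-siAE.

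Mean levels of the DNA strands were similar, at the cytosines that chose the tiles, whereas single CpGs often differed between strands. At the 2579 CpGs measured on both strands, the mean levels were 0.875 on the + strand and 0.882 on the - strand in SKNO-1, and 0.0678 and 0.0697 in SKNO-siAE. The strands of a CpG differed on average by 0.124 in SKNO-1 against 0.0781 in SKNO-siAE, and lay within 0.2 of each other at 77.2% and 85.7% of these CpGs. Of 334 members with at least 3 cytosines on each strand, 263 differed by at least 0.6 on both, which the choice of tiles by their mean over both strands largely fixes. Cytosines in the same tiles with at least 5 reads in only 1 of the libraries took no part in the choice. The 2406 of these in SKNO-1 had a mean level of 0.846, and the 1931 in SKNO-siAE had a mean of 0.157. Of 203 members with such cytosines of each library, at different positions, 182 had the higher mean in SKNO-1, 140 of them by at least 0.6. The median difference was 0.811. These cytosines came from the same 2 libraries and neighbouring DNA, and are not replicates. A read over them can also cover cytosines that chose the tile, so they are not a separate check of the difference.

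The regions with the most member tiles lay in genes of varied function. The longest, on chromosome 11 (chr11:69259001-69261500), lay in LINC02952, a long non-coding RNA gene 197 kb upstream of the start of CCND1, which encodes cyclin D1. It held 4 member tiles, and over its 73 cytosines 1265 of 1417 calls were methylated in SKNO-1, against 35 of 1299 for SKNO-siAE. The median cytosine of these member tiles had 15 and 18 reads. The other region of 4 tiles (chr1:45189501-45191500) overlapped coding exons of ARMH1, at 0.921 in SKNO-1 against 0.0602 in SKNO-siAE. These 4 tiles were among only 6 measured outside promoters in ARMH1. MAD1L1, which encodes a protein of the spindle assembly checkpoint, held 9 members in 5 regions, more than any other gene. Its region at chr7:2116001-2118000 had 1945 of 1973 methylated calls in SKNO-1, against 47 of 2359 for SKNO-siAE. Another, at chr7:1960501-1962500, had 2394 of 2572 and 60 of 1353. MAD1L1 also held 276 measured non-promoter tiles, of which 251 were at or above 0.8 in both lines, so that most of this gene body was methylated in both. The annotated gene ENSG00000286192 overlaps MAD1L1 and shares these tiles.

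CRYBG1, whose protein has crystallin-type domains, held 3 members at chr6:106959501-106961000, with 625 of 688 calls methylated in SKNO-1 against 7 of 896 in SKNO-siAE. RASA3, a GTPase-activating protein of the Ras family of GTPases, held 5 members among 137 tiles, of which 121 were at or above 0.8 in both lines. In its longest region the levels were 0.803 and 0.0219. In MAEA, a subunit of an E3 ubiquitin ligase complex, 3 members at chr4:1294001-1295500 stood at 0.755 and 0.0152. A further 2 regions lay in the non-coding RNA genes LINC00467 (1317 of 1356 and 0 of 775 calls) and LINC00886 (793 of 840 and 5 of 628). Each of these 9 regions had a level under 0.07 in SKNO-siAE, whereas their levels in SKNO-1 ran from 0.755 to 0.987.

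Among the 10 tiles with the largest differences, 6 were at 1 in SKNO-1 against 0 in SKNO-siAE. CEBPA, the transcription factor that drives granulocytic differentiation, had such a tile (chr19:33791001-33791500) in its 3′ untranslated region, with 122 of 122 calls methylated in SKNO-1 against 0 of 225 in SKNO-siAE. At its most deeply read cytosine in each library, 14 of 14 reads were methylated in SKNO-1 (95% Wilson interval 0.785 to 1) and 0 of 24 in SKNO-siAE (0 to 0.138). These intervals cover counting error only, not the spread between cultures, since each line had 1 library. Duplicate reads left in the counts would make them too narrow. DNMT3A, which sets new methylation, had one in an intron (chr2:25563001-25563500), with 192 of 192 and 0 of 90 methylated calls, from at most 20 and 9 reads at any one cytosine. The others were tiles of LINC00886, of MIB2, a ubiquitin ligase of the Notch pathway (77 of 77 and 0 of 66 calls), of ESRRB, an orphan nuclear receptor (77 of 77 and 0 of 98), and of SEMA6B, a semaphorin (50 of 50 and 0 of 90). Tiles of ADAMTS17 (a secreted metalloproteinase), DLEU1 (a long non-coding RNA), FNBP1 (a membrane-bending adaptor) and VRK2 (a protein kinase) made up the 10, with 0 to 3 methylated calls each in SKNO-siAE. These tiles held 10 to 12 measured cytosines each, close to the minimum, apart from that of LINC00886 with 20, and several rest on few reads, with 5 at each cytosine of the SEMA6B tile and 7 at each of the MIB2 tile in SKNO-1.

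The surroundings of these regions, up to 3 kb from the centre and read along rising coordinates, differed from each other (plot of single cytosines). Before the MAD1L1 region, 51 cytosines averaged 0.978 in SKNO-1 against 0.913 in SKNO-siAE. Within it the averages were 0.987 and 0.0339. After it, 18 of the cytosines lay in another member tile, and the 5 others were at 1 and 0. Before the LINC02952 region, 14 cytosines lay in another member tile, and the 68 others averaged 0.0371 and 0. The 13 before the TP73 region averaged 0.248 and 0.0110. Before the CRYBG1 region the 81 cytosines averaged 0.40 and 0.41. After the DNMT3A region, 50 cytosines averaged 0.158 and 0.122.

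Over all regions the difference declined within about 1 kb (plot of flanking tiles). Of the 692 edges, 264 had a next tile with at least 3 measured cytosines. In these tiles the mean level was 0.695 in SKNO-1 against 0.356 in SKNO-siAE, a mean difference of 0.339 (SD over tiles 0.336). SKNO-1 was higher by at least 0.6 in 60 of them, by 0.2 to 0.6 in 87, and lower by at least 0.2 in 2. The lines were within 0.2 of each other in 115, of which 56 were at or above 0.8 in both and 42 under 0.2 in both. The mean difference fell to 0.158 from 500 to 1000 bp, to 0.110 from 1000 to 1500 bp, and was -0.0179 from 4500 to 5000 bp. Between the first tile and the next, the mean level went from 0.695 to 0.590 in SKNO-1 and from 0.356 to 0.431 in SKNO-siAE. From there on to 5 kb it went from 0.590 to 0.724 in SKNO-1 and from 0.431 to 0.742 in SKNO-siAE. A next tile outside promoters with at least 10 measured cytosines could not differ by 0.6, or it would have been a member, and from 1000 bp on 34 tiles were members of other regions. These counts lean on the tiles that were measured, since 428 edges had none.

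By their place in the genome, the members lay in protein-coding gene bodies more often than the measured non-promoter tiles did. In all, 280 members (69.1%) overlapped a coding gene, beside 60.5% of all non-promoter tiles and 52.3% of those lower in SKNO-1. Introns held 38.5% of the members, coding exons 21.7%, UTRs 4.94% and other exons 3.95%. A further 17.5% lay in non-coding genes only, and 13.3% lay in no annotated gene, beside 22.9% of all non-promoter tiles. A coding start lay within 5 kb of 38.3% of the members and of 22.8% of all non-promoter tiles. The median distance to it was 10296 bp for the members and 19014 bp for all. The window from 1500 bp upstream to 500 bp downstream of the start of another transcript, such as a non-coding RNA, overlapped 32.1% of the members and 25.7% of all. Widening the promoter window to 1500 bp downstream left 322 members, of which 61.2% lay in coding genes, beside 57.3% of the 56734 tiles left. These shares are descriptions, since neighbouring tiles are not independent, and no test of them was made.

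By median CpG number the members matched all non-promoter tiles. By the share of CpG-rich tiles, at the main cut-off below, they were closer to these than to other unmethylated DNA. The median member held 19 CpGs in its 500 bp at 55.8% GC, the same medians as all non-promoter tiles. A tile was called CpG-rich at a GC share of at least 50% and an observed to expected CpG ratio of at least 0.6. By that measure 25.4% of the members were CpG-rich, beside 23.8% of all non-promoter tiles and 42.1% of tiles under 0.2 in both lines. The share was 42.3% of those lower in SKNO-1 and 56.4% of the promoter tiles that were higher in SKNO-1. At a stricter cut-off, 55% GC and a ratio of 0.65, it was 19.8% of the members and 14.7% of all non-promoter tiles. The letters TGTGGT, which RUNX1 is known to bind, were found on either strand in 29.4% of the members (119 tiles), in 25.1% of all non-promoter tiles and in 22.7% of tiles under 0.2 in both lines. The form with a CpG, TGCGGT, was found in 14.07% of the members and 14.03% of all tiles. The ETS letters GAGGAAG occurred in 21.2% of the members and 17.6% of all tiles, and CCGGAAG in 7.41% and 6.25%. The E-box CACGTG occurred in 16.5% and 14.5%, the SP1 letters GGGGCGGGG in 7.65% and 5.29%, the NRF1 letters GCGCATGC in 2.47% and 1.38%, and the CEBP letters TTGCGCAA in 0.247% and 0.160%. None of these letter strings contains another, and a match gives only that the letters were there.

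A tile could be a member only where SKNO-siAE was low, so the 4752 non-promoter tiles under 0.2 in SKNO-siAE are the closer background. Of these, 349 (7.34%) were members, and 4058 (85.4%) were also under 0.2 in SKNO-1. The share of members was 9.79% in coding genes and 4.67% outside them, and within genes it was 11.7% in coding exons, 11.1% in UTRs, 9.29% in introns and 6.60% (13 of 197) in other exons. It was 4.45% in CpG-rich tiles and 9.22% in the others. With 5 to 14 CpGs per tile the share was 9.14%, and with 40 or more it was 4.97%. Tiles with TGTGGT had a share of 9.47% and those without it 6.68%, and tiles with the E-box had 10.3% and those without it 6.93%. The other letters gave equal shares or the opposite order, or rested on few tiles. The share with and without the letters was 6.55% and 7.49% for TGCGGT, 7.35% and 7.34% for GAGGAAG, 6.03% and 7.48% for CCGGAAG, and 4.76% and 7.67% for GGGGCGGGG. For GCGCATGC it was 8.04% (9 of 112 tiles) and 7.33%, and TTGCGCAA was held by only 11 tiles, of which 1 was a member. How far CpG number, place and these letters move together was not tested, and the splits were chosen after earlier values were known.

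The nearest coding promoter mostly did not share the difference. Of the 346 regions, 275 had a nearest coding start with at least 10 measured cytosines from 1500 bp upstream to 500 bp downstream. Some regions shared a start, and these were 252 distinct starts. At 207 of them the lines were within 0.2 of each other, with 113 under 0.2 in both and 46 at or above 0.8 in both. SKNO-1 was higher by at least 0.2 at 29 (11.5%), beside 2.97% of the 57706 coding starts measured, and lower by at least 0.2 at 16 (6.35%), beside 12.9%. Counted by region, the share higher was 19.5% where the start lay within 5 kb, 11.3% from 5 to 20 kb, 2.44% from 20 to 50 kb and 3.70% beyond. A total of 60 regions touched a promoter window, and 16 adjoined a promoter tile that was itself higher by at least 0.6.

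Examples in both directions were chosen after their values were seen. At HLX, a homeobox factor of blood cells, a coding exon tile was at 0.888 in SKNO-1 against 0.0629 in SKNO-siAE, and the promoter 1340 bp away at 0.667 and 0.00123. At KCNN2, a potassium channel, the tile was at 0.907 and 0 and the promoter at 0.952 and 0.0743. At IGF2BP3, an RNA-binding protein, 3 regions within 20.1 kb of the start accompanied a promoter at 0.703 and 0.00414. At CEBPA the promoter was at 0.533 and 0.0208, between a member in its 3′ untranslated region and another upstream, in CEBPA-DT (0.993 and 0.201). The opposite was seen at TET3, a methylcytosine oxidase, where a coding exon was at 0.784 and 0.153 and the promoter 1714 bp away at 0.0923 and 0.832. At GNA12, a G protein subunit, the member, which also overlaps AMZ1, was at 0.979 and 0.00691 and a promoter 29023 bp away at 0.0435 and 0.957. At SIK1, a salt-inducible kinase, the member was at 0.962 and 0.0242 and the promoter 982 bp away at 0 and 0.477.

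The lists of blood cell genes held 10 members. Of 892 tiles of haematopoietic transcription factors and fusion partners, 7 (0.785%) were members, close to the 0.66% of all non-promoter tiles, and 34 were lower by at least 0.6, beside 2.78% of all non-promoter tiles. They included CEBPA and, besides HLX, CEBPE, which acts late in granulocyte formation and had a coding exon at 0.728 in SKNO-1 against 0.0144 in SKNO-siAE. A tile of LINC01509, 23.8 kb from KLF4, was at 0.923 and 0, and an intergenic tile 143 kb from TRIB1 was at 0.939 and 0.0758. Of 150 tiles of myeloid surface, granule and cytokine genes, 3 (2%) were members, and 12 were lower. PRTN3, the granule protease proteinase 3, had a coding exon at 0.980 and 0.160, and a tile 4248 bp upstream was at 0.836 and 0.0317. The third, 67.0 kb upstream of SPN (sialophorin), was at 0.792 and 0.0666.

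Genes of the methylation machinery gave 3 members of 83 tiles (3.61%), with 5 lower. Apart from the DNMT3A tile at 1 and 0, the adjoining DNMT3A tile was at 0.798 and 0.0833, and the third was that of TET3. In this intron of DNMT3A the SKNO-1 library also had the larger share of calls, with log2 ratios of 1.07 and 1.37 for the adjoining tiles, and what part that had in the levels was not tested. Tumour suppressors often methylated in leukaemia gave 2 members of 366 tiles (0.546%), both in TP73, at 0.964 and 0 and at 0.915 and 0.0119, and 13 were lower. Of the 26 tiles measured in TP73, 3 were lower in SKNO-1 by at least 0.6, and the median difference was -0.127. Imprinted genes gave 2 of 474 (0.422%), with 5 lower. One, also counted among the ion channels below, was an intron tile of KCNQ1 (chr11:2721501-2722000), at 0.989 in SKNO-1 against 0.206 in SKNO-siAE. The other lay in PWRN1, 50.5 kb upstream of a start of SNRPN, with 940 of 1007 methylated calls and 0 of 653.

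Developmental transcription factors gave 12 members of 3748 tiles (0.320%), with 108 lower. The largest differences were a coding exon of ASCL2 (0.988 and 0), a tile 94.1 kb from DLX2 (0.948 and 0) and one in OFCC1, 371 kb from the nearest coding start, that of TFAP2A (0.945 and 0.0345). Zinc finger genes of the ZNF, ZFP and ZSCAN families gave 13 of 1512 (0.860%), with 46 lower. Coding exons of ZNF704 (0.976 and 0) and ZNF784 (0.992 and 0.0961) and a tile 25024 bp from ZNF850 (0.890 and 0.0183) led them. Ion channel and neurotransmitter receptor genes gave 9 of 1333 (0.675%), with 54 lower. They were led by the DLEU1 tile, 207 kb from KCNRG, the KCNN2 intron and a coding exon of KCNH2, a cardiac potassium channel (0.789 and 0). Axon guidance genes gave 3 of 481 (0.624%), with 18 lower, in SEMA6B, PLXNC1 (0.945 and 0) and upstream of SEMA4B (0.707 and 0). Protocadherin and cadherin genes gave 2 of 556 (0.360%), with 9 lower: a tile 766 kb from CDH18 (0.991 and 0.183) and one 2975 bp from PCDH8 (0.931 and 0.316). Among Wnt pathway genes 1 of 475 tiles (0.211%) was a member, in an intron of AXIN1, a scaffold of the beta-catenin destruction complex (0.851 and 0.184), and 25 were lower. Over all their tiles the lists had from 0.211% members (Wnt genes) to 3.61% (methylation machinery). The closer background is tiles under 0.2 in SKNO-siAE, of which 7.34% were members, and over these the shares were 5.88% (8 of 136) for developmental factors, 9.60% (12 of 125) for zinc finger genes, 9.30% (8 of 86) for ion channels and 8.33% (5 of 60) for haematopoietic factors. The other lists had 29 such tiles or fewer. Members were 3 of 29 among myeloid genes, 3 of 28 in axon guidance, 1 of 25 in the Wnt list, 1 of 23 among imprinted genes, 2 of 16 among tumour suppressors, 1 of 13 among cadherins and 3 of 12 in the methylation machinery. In all 11 lists more tiles were lower than higher by 0.6, as over all non-promoter tiles (2.78% lower and 0.66% higher). These shares rest on few tiles and were given no test.

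Protein-coding genes with a member numbered 229, of which 45 had at least 2 members and 17 at least 3. Overlapping annotations count the same tiles more than once. Examples are MAD1L1 and ENSG00000286192, with 9 members each, and AHRR and PDCD6-AHRR, with 3 each. In COL23A1, a transmembrane collagen, 4 members lay in 4 separate regions, with levels from 0.724 to 0.910 in SKNO-1 and 0 to 0.00975 in SKNO-siAE. In TRERF1, a transcriptional regulator, 3 separate intron tiles ran from 0.952 to 1 and from 0.0143 to 0.157. AHRR, the repressor of the aryl hydrocarbon receptor, had 3 members in 3 regions, from 0.755 to 0.877 and from 0.00571 to 0.137. In 36 of the 229 genes another non-promoter tile was lower in SKNO-1 by at least 0.6. The matching shares over all measured coding genes were not counted. A gene with many measured tiles has more room to hold such tiles, so no trait of these genes is read from the counts.

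Read depth moved with the difference. The share of a library's calls that fell in a tile was higher in SKNO-1 for 60.5% of the members, for 48.8% of all non-promoter tiles, for 53.2% of those under 0.2 in both lines and for 41.4% of those lower in SKNO-1. The median log2 ratio of these shares was 0.23 for the members, -0.02 for all, 0.05 for those under 0.2 in both and -0.15 for the lower tiles. Some 66 members had at least 2 times the share of calls in SKNO-1 and 31 had at least 2 times the share in SKNO-siAE, and the part of depth in the levels was not tested. Requiring 10 reads at each cytosine left 204 of the 405 members measured, of which 186 still differed by at least 0.6. By chromosome the members made up from 0.199% of tiles on chromosome 18 (2 of 1005) to 1.03% on chromosome 9 (16 of 1556). The ratio of call shares between the lines was 0.614 on chromosome 18 and 0.834 on chromosome 9, and 1.70 on chromosome 15, where 0.705% of tiles were members.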

How the data were processed

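MCC-Seq libraries of SKNO-1 and SKNO-siAE were analysed, 1 per cell line. The authors captured bisulfite-converted DNA with SeqCap Epi probes, removed adapters and low-quality bases, placed reads on hg19 by BSMAP 2.73 and deposited, without normalization, counts of methylated and of unmethylated reads for each CpG cytosine and strand. For trimming, the study's methods name a Perl script and the submitters' processing notes name cutadapt 1.4.2. The methods say that calls came from unique sequences, without saying whether this means removal of PCR duplicates, unique placement or both. Remaining duplicates would make the intervals too narrow. The autosomal counts, in which a read is counted at each CpG it covers, summed to 82286643 in SKNO-1 against 81038534 in SKNO-siAE, and 3125690 cytosines with at least 5 reads in both (median 16 reads in each library) were used. All autosomal positions were CpG cytosines in GRCh37.

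Levels, tiles, joined regions (gap of at most 1 tile), flanks and shares were computed in python 3.11.15 with numpy 2.4.6, pandas 2.3.3, scipy 1.17.1 and pysam 0.24.0, and the tile calling was tested on simulated data. Plots used matplotlib 3.10.9. Gene models were those of GENCODE release 44 as lifted to GRCh37. A tile outside coding genes was given the gene with the nearest coding start. The members and gene lists were chosen with earlier results of these data known. Named were the 10 regions with the most members, the 10 tiles with the largest differences, up to 3 tiles per list and 3 tiles on each side of the threshold. Of the regions, 1 is not reported here. Sequences came from these, without chromosome 8 and UTRs, and their split over the 3 sources and all other names were settled after the values were seen. No p-values were computed, since there were no replicates. The alternatives were 10 reads per cytosine, pooled reads, merged strands with at least 5 CpGs per tile, shifted tiles, other differences and promoter windows, another definition of CpG-rich and joining adjoining tiles only.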

Additional observations from a re-analysis of the deposited data

How the results depend on the processing

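With at least 10 reads per cytosine 214 tiles in 188 regions were found, and 651 tiles in 562 regions with both strands merged and the minimum set to 5 CpGs in place of 10 cytosines, which raised the tiles measured from 61401 to 93948. Of the 405 members, 370 kept a difference of at least 0.6 with pooled calls and 372 with merged strands. Both reuse the reads that chose the members. The share of non-promoter tiles was 0.954% at a minimum difference of 0.5, 0.487% at 0.7 and 0.568% with the promoter window to 1500 bp downstream. Of tiles under 0.2 in SKNO-siAE, 8.75% and 5.93% passed at 0.5 and 0.7, and 8.64% when promoter windows of any transcript were left out. The share in coding genes was 61.2% with the wider window (57.3% of all tiles) and 75.6% without promoter windows of any transcript (61.9% of all). CpG-rich tiles made up 20.1% with merged strands and 5 CpGs (18% of all) and 19.6% without promoter windows of any transcript (21.1% of all). They made up 19.8% at 55% GC and a ratio of 0.65 (14.7% of all). Beside the regions the mean difference was 0.334 at 10 reads and 0.344 with pooled calls, and at cytosines the choice did not use it was 0.706 at 10 reads. The other 35 of 53 values stayed within 1.5 times the main count or inside the interval of the main share. With 1 library per line the spread between cultures is unknown, and the depth, a median of 17 and 13.5 reads, limits single cytosines. No paired analysis was possible because each line had 1 library and the values come from no test.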
